A study of Mus musculus with 22 samples.

Results

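The MHC class I and immunoproteasome genes followed here are 10 genes, chosen by name: B2m, H2-K1, H2-D1, Tap1, Tap2, Tapbp, Psmb8, Psmb9, Psmb10 and Nlrc5. They were found through the array annotation, which gave them 36 spots, all with a tested value, and they are 10 of the 17039 genes tested. The kidneys came from C57BL/6 mice whose left ureter was tied off (obstructed) or was exposed but not tied (sham). Kidneys were collected 1, 2, 5 or 9 days later, with 3, 3, 3 and 4 obstructed replicates and 2 sham replicates at each day. All operations were on 1 side only, and neither genotype beyond the strain, nor age, is given in the sources used here. Each kidney RNA, labelled with Cy5, shared a 2-colour array with a mouse universal reference RNA, labelled with Cy3. A value here is therefore the log2 ratio of kidney over reference, which compares samples for a gene but not one gene with another.

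MHC class I molecules show peptides from inside a cell to CD8 T cells. A heavy chain (H2-K1, H2-D1) pairs with the light chain beta-2 microglobulin (B2m). Peptides are cut by the proteasome, carried into the endoplasmic reticulum by the transporter Tap1-Tap2 and loaded with the help of tapasin (Tapbp). Under interferon-gamma the immunoproteasome subunits Psmb8, Psmb9 and Psmb10 take the place of the catalytic subunits Psmb5, Psmb6 and Psmb7, and Nlrc5 is a transactivator of class I genes. Blood-derived cells carry high levels of these molecules, and tubule cells of the kidney carry them too.

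Of the 10 genes, 9 were higher in obstructed than in sham kidneys on average over the 4 days, and Nlrc5 was the exception. The change was small at day 1 and larger later. The median difference of the 10 genes, obstructed minus sham on the log2 scale, was -0.01 at day 1, 0.65 at day 2, 1.08 at day 5 and 1.27 at day 9, where the median over all genes tested was -0.04, 0.00, 0.02 and -0.02. By limma with Benjamini-Hochberg adjustment over all genes at a threshold of 0.05, 1 gene was called higher at day 1 (Psmb10), 6 at day 2 (B2m, Tap1, Tapbp, Psmb8, Psmb9 and Psmb10), and the same 9 at days 5 and 9. Over all genes tested, the share called higher was 7.99% at day 1, 9.09% at day 2, 14.9% at day 5 and 20.5% at day 9. For the mean of the 4 daily differences 9 of 10 genes were called higher, against 26.9% of all genes, and 0 of 10 were called lower (0 also at an unadjusted p under 0.05), against 25.9% of all genes. The day 1 count was 0 when obstructed replicate S05 or S38 or sham replicate S03 or S06 was left out, and the day 2 count was 3 without obstructed S04 or S18 or sham S39. Since whole kidneys were measured, a change in the number of cells of a type and a change in RNA per cell cannot be told apart.

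All obstructed replicates lay above all sham replicates of their day for 3 genes at day 1 (Tap1, Psmb8 and Psmb10) and for 9 at each of days 2, 5 and 9. The same held for 19.5%, 26.6%, 27.1% and 28.4% of all genes tested at days 1, 2, 5 and 9. Tap1, Psmb8 and Psmb10 did so at all 4 days, as did 8.01% of all genes.

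**Figure D1:**
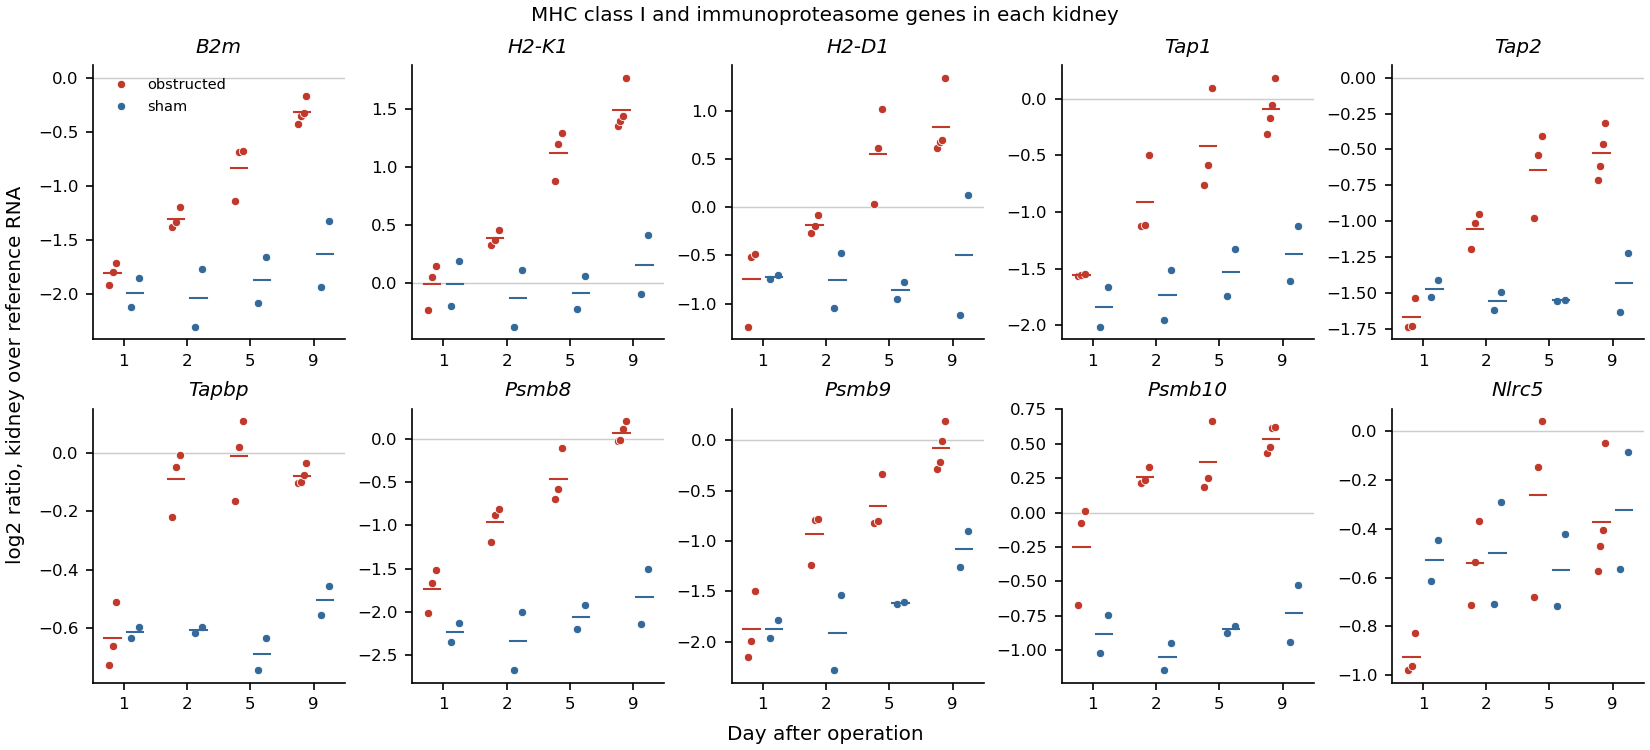
Log2 ratio of kidney over reference RNA (y axis) by day after the operation (x axis) for the 10 genes; each point is a replicate, red for obstructed and blue for sham, and bars are group means. For 9 genes the red points lie above the blue ones at days 2, 5 and 9, while the Nlrc5 points overlap at those days.

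Of the 10 genes, 7 lie on chromosome 17, B2m on chromosome 2, and Psmb10 and Nlrc5 on chromosome 8 (GRCm38.p6). Tap1, Tap2, Psmb8 and Psmb9 are neighbours, between base 34182030, the end of Psmb9, and base 34216321, the end of Tap2. Promoter sequences from RefSeq (GRCm38.p6, 250 bases before to 50 after the start) were found for 8 of the 10 genes, in 9 entries. Tap2 and Nlrc5 had none. The stretches are those of B2m, H2-K1, H2-D1 and Tap1, which all hold a motif match, and do not cover every gene that rose. These stretches end at the base before an annotated start and read 5′ to 3′ on the strand of the gene. Capitals mark matches to 3 motifs, each searched on both strands. These are GAAANNGAA (a form of interferon response element), CCAAT (the core of a Y box) and GGGANNNCC (a form of kappa B core).
B2m, chr2:122147437-122147686, plus strand: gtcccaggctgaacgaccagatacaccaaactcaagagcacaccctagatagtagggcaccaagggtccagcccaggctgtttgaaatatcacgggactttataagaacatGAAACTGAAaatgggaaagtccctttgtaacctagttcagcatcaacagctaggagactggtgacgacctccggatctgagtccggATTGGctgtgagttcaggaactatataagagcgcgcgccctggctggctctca
H2-K1, chr17:34000348-34000597, minus strand: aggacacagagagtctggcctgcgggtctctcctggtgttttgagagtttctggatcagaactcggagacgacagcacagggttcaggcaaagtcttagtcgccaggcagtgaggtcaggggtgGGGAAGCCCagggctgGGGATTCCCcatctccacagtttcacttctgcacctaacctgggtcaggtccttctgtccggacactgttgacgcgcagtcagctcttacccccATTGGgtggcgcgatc
H2-D1, chr17:35262844-35263093, plus strand: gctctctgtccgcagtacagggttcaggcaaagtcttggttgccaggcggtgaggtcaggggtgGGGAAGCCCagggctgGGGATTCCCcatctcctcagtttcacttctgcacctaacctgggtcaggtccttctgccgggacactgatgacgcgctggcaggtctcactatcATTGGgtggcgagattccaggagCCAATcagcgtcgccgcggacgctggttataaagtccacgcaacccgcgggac
Tap1, chr17:34187331-34187555, plus strand: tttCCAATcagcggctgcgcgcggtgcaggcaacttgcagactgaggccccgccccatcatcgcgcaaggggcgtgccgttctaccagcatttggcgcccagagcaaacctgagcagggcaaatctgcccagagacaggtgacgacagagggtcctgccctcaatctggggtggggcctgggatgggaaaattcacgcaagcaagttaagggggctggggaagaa
The H2-K1 stretch lies before the upstream one of 2 starts in the table, and inside the outer bound of the annotated gene, which reaches base 34000619. H2-K1 and H2-D1 were alike over 87.4% of 190 bases aligned on the kappa B match without gaps. In both, the match GGGATTCCC, which reads as kappa B on either strand, began 94 bases before an ATTGG, the Y box core of the other strand. The Tap1 stretch fills the gap between the starts of Tap1 and Psmb9, which run in opposite directions. Its CCAAT, at bases 34187334 to 34187338, is also the CCAAT match of Psmb9. Matches to CCAAT were in the 300-base windows of 6 of the 8 genes (B2m, H2-K1, H2-D1, Tap1, Tapbp and Psmb9), against 37.4% of 32851 promoters. GGGANNNCC was in 2 of the 8 (H2-K1 and H2-D1), against 18.6%, and GAAANNGAA in 1 (B2m), against 8.56%. Psmb8 and Psmb10, which also rose, had no match to any of the 3 motifs. These matches are letters in a window and were not tested for binding or for a part in the rise. Forms of these sites with other letters or spacing were not searched for. A gene without a match may therefore still hold such a site.

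The light chain was called higher from day 2 and the heavy chains H2-K1 and H2-D1 from day 5. These genes were not tested against each other, so the day of a first call gives no order of onset. B2m, the light chain, was at -1.80, -1.71 and -1.92 in obstructed kidneys at day 1, against -2.12 and -1.86 in sham kidneys. It was at -1.20, -1.38 and -1.34 in obstructed kidneys at day 2, against -1.77 and -2.30 in sham kidneys, and at -0.67, -1.14 and -0.68 at day 5, against -2.09 and -1.66. At day 9 it was at -0.33, -0.43, -0.17 and -0.35 in obstructed kidneys, against -1.32 and -1.93 in sham kidneys. The groups overlapped at day 1 and lay apart from day 2 on, with the highest obstructed values at day 9. The differences were 0.18 ± 0.20 (SE) at day 1, 0.73 ± 0.20 at day 2, 1.04 ± 0.20 at day 5 and 1.31 ± 0.19 at day 9, the last a 2.48-fold ratio, with limma adjusted p of 0.610, 0.0254, 0.00173 and 7.62e-05. The day 2 call was lost without obstructed replicate S04 (0.68, adjusted p = 0.0737) or S18 (0.77, adjusted p = 0.0520) and without sham S39 (0.46, adjusted p = 0.249).

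H2-K1, which encodes the heavy chain of the K molecule, stood at 0.05, 0.15 and -0.23 in obstructed kidneys at day 1, against -0.20 and 0.19 in sham kidneys. At day 2 it stood at 0.37, 0.33 and 0.46 in obstructed kidneys, against 0.11 and -0.37 in sham kidneys, and at day 5 at 1.30, 1.20 and 0.88, against 0.06 and -0.23. At day 9 it stood at 1.77, 1.36, 1.44 and 1.40 in obstructed kidneys, against 0.41 and -0.09 in sham kidneys. The groups overlapped at day 1 and lay apart at days 2, 5 and 9, with sham values between -0.37 and 0.41 throughout. The differences were -0.00 ± 0.20 at day 1, 0.52 ± 0.20 at day 2 (limma adjusted p = 0.0966), 1.21 ± 0.20 at day 5 (adjusted p = 0.000507) and 1.33 ± 0.19 at day 9 (adjusted p = 5.67e-05). H2-D1, the heavy chain of the D molecule, rose at day 5 by 1.42 ± 0.35 (adjusted p = 0.00797) and at day 9 by 1.33 ± 0.33 (adjusted p = 0.00488), and had differences of -0.03 ± 0.35 at day 1 and 0.58 ± 0.35 at day 2. At day 5 its values were 1.02, 0.62 and 0.04 in obstructed kidneys, against -0.78 and -0.95 in sham kidneys, without overlap. Its day 9 values were 1.35, 0.70, 0.67 and 0.62 in obstructed kidneys, against 0.13 and -1.12 in sham kidneys, so that the sham replicates lay further apart than the obstructed ones. Without sham replicate S33 the day 9 difference of H2-D1 was 0.71 (adjusted p = 0.171), and without sham S32 that of day 5 was 1.33 (adjusted p = 0.0601). Heavy chain genes are close relatives and the probe sequences were not examined, so the values of H2-K1, H2-D1 and their relatives may share signal.

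**Figure D2:**
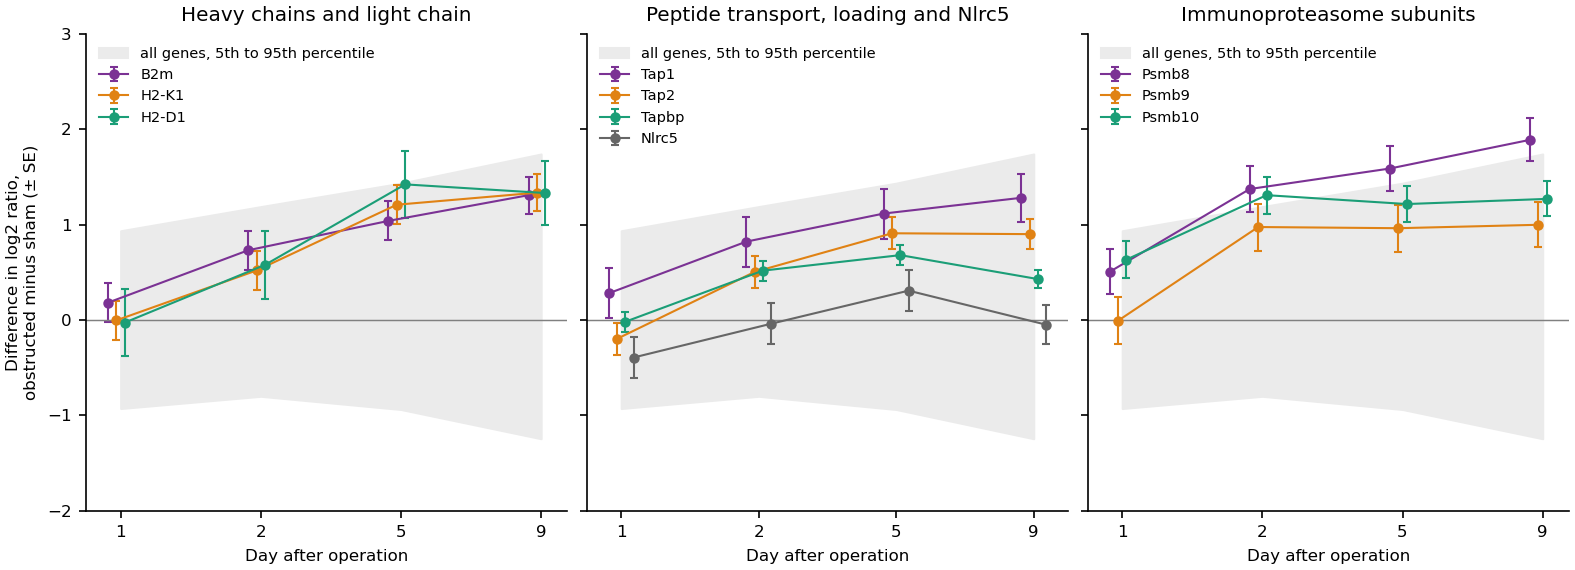
Difference in log2 ratio, obstructed minus sham (y axis, ± standard error of the limma fit), by day after the operation (x axis) for the chains, for the transport and loading genes with Nlrc5, and for the immunoproteasome subunits; the grey band runs from the 5th to the 95th percentile of all genes tested. Psmb8 lies above the band at days 2, 5 and 9, and Psmb10 at day 2. Psmb8 reaches 1.89 at day 9, while Nlrc5 stays between -0.39 and 0.31.

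Repeated spots gave a check within arrays. B2m had 12 spots, 11 of 1 transcript accession and 1 of another, and H2-K1 had 14 spots of 3 accessions, 10 of them of 1. At day 9 all 12 B2m spots were called higher, at 1.03 to 1.40, and all 14 H2-K1 spots, at 0.80 to 1.50. At day 5 this held for 12 of 12 B2m spots and 13 of 14 H2-K1 spots, and at day 2 for 9 of 12 and 4 of 14. The size differed by accession. In the mean over days the 10 H2-K1 spots of 1 accession gave 0.83 to 0.89, and those of the other accessions 0.28 to 0.58 and 0.50 to 0.84. For B2m the 11 spots gave 0.75 to 0.90 and the 1 of the other accession 0.57. The accession with most spots weighs most in the gene value. Spots of a gene share its RNA sample and are no replicates of a condition. The 2 spots of Psmb8 gave 1.77 and 2.01 at day 9. The 2 spots of Tapbp, of different accessions, disagreed: 1 gave 0.21, 0.92, 1.08 and 0.83 at days 1, 2, 5 and 9 and was called at days 2, 5 and 9, and the other gave -0.25, 0.12, 0.28 and 0.02 and was not called at any day.

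**Figure D3:**
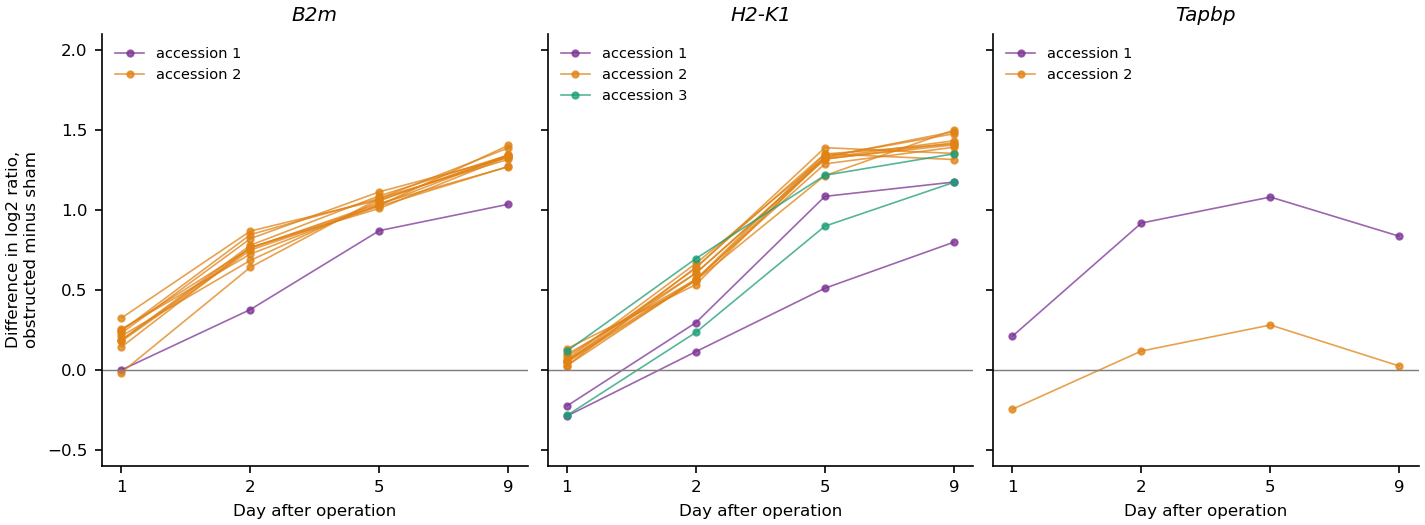
Difference in log2 ratio, obstructed minus sham (y axis), by day (x axis) for each spot of B2m (12 lines), H2-K1 (14 lines) and Tapbp (2 lines), coloured by the transcript accession the spot stands for. All B2m and H2-K1 spots lie higher at day 9 than at day 1, with some spots of the less represented accessions below the rest. The 2 Tapbp spots lie 0.83 and 0.02 above 0 at day 9.

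Of the peptide transport and loading genes, Tap1 and Tapbp were called higher from day 2 and Tap2 from day 5. Their first calls give no order of onset either, since they were not tested against each other. Tap1, the first transporter subunit, was at -1.57, -1.55 and -1.56 in obstructed kidneys at day 1, against -2.01 and -1.66 in sham kidneys. At day 9 it was at 0.18, -0.32, -0.05 and -0.17 in obstructed kidneys, against -1.13 and -1.61 in sham kidneys. The groups lay apart at both days, by little at day 1 and by more at day 9. The Tap1 differences were 0.28 ± 0.26 at day 1 (limma adjusted p = 0.525), 0.82 ± 0.26 at day 2 (adjusted p = 0.0460), 1.12 ± 0.26 at day 5 (adjusted p = 0.00574) and 1.28 ± 0.25 at day 9 (adjusted p = 0.000731). The day 2 call of Tap1 was lost in 12 of 21 fits that left out 1 replicate, with differences of 0.60 to 1.04 and adjusted p of 0.0504 to 0.280; these were the fits without sham S03, S06, S08 or S39 or without obstructed S02, S04, S05, S18, S34, S35, S36 or S38. The day 5 call was lost without sham S22 (0.91, adjusted p = 0.0794). Tap2, the second subunit, was at -1.73, -1.53 and -1.73 in obstructed kidneys at day 1, against -1.53 and -1.41 in sham kidneys, and at -0.31, -0.46, -0.72 and -0.62 at day 9, against -1.22 and -1.63. The obstructed values of Tap2 lay below the sham values at day 1, by little, and above them at day 9. Its differences were -0.20 ± 0.17 at day 1, 0.50 ± 0.17 at day 2 (adjusted p = 0.0557), 0.91 ± 0.17 at day 5 (adjusted p = 0.00115) and 0.90 ± 0.16 at day 9 (adjusted p = 0.000352). Tapbp, which encodes tapasin, had differences of -0.02 ± 0.10, 0.52 ± 0.10, 0.68 ± 0.10 and 0.43 ± 0.10 at days 1, 2, 5 and 9 as the mean of its 2 spots, which disagreed as given above.

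Of the immunoproteasome subunits, Psmb10 was called higher from day 1 and Psmb8 and Psmb9 from day 2. No test compared these subunits with each other, so this too is no order of onset. Psmb8, the subunit LMP7, was at -1.67, -1.51 and -2.02 in obstructed kidneys at day 1, against -2.35 and -2.12 in sham kidneys, and at -0.82, -0.88 and -1.19 at day 2, against -2.00 and -2.67. At day 5 it was at -0.12, -0.70 and -0.59 in obstructed kidneys, against -2.20 and -1.91 in sham kidneys. At day 9 it was at 0.20, -0.02, 0.11 and -0.02 in obstructed kidneys, against -1.51 and -2.14 in sham kidneys. The groups lay apart at all 4 days, and at day 9 the obstructed kidneys came level with the reference. The Psmb8 differences were 0.50 ± 0.24 at day 1 (limma adjusted p = 0.165), 1.37 ± 0.24 at day 2 (adjusted p = 0.00150), 1.59 ± 0.24 at day 5 (adjusted p = 0.000222) and 1.89 ± 0.22 at day 9 (adjusted p = 1.15e-05), the last a 3.70-fold ratio. At day 9 this lay at percentile 95.9 of the differences of all genes.

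Psmb10, the subunit MECL-1, was the one gene of the 10 called at day 1. It was at -0.68, -0.07 and 0.01 in obstructed kidneys at day 1, against -1.02 and -0.74 in sham kidneys, and at 0.33, 0.22 and 0.24 at day 2, against -0.95 and -1.15. It was at 0.66, 0.25 and 0.19 in obstructed kidneys at day 5, against -0.87 and -0.82 in sham kidneys, and at 0.47, 0.44, 0.62 and 0.61 at day 9, against -0.53 and -0.94. All obstructed values of day 9 lay above those of day 2, and the lowest obstructed value at day 1, of S02, lay just above the higher sham value. Its differences were 0.63 ± 0.19 at day 1 (limma adjusted p = 0.0344), 1.31 ± 0.19 at day 2 (adjusted p = 0.000638), 1.22 ± 0.19 at day 5 (adjusted p = 0.000351) and 1.27 ± 0.18 at day 9 (adjusted p = 6.04e-05). The day 1 call was lost without obstructed S05 (0.55, adjusted p = 0.111) or S38 (0.51, adjusted p = 0.102) and without sham S03 (0.50, adjusted p = 0.209) or S06 (0.77, adjusted p = 0.0804). Psmb9, the subunit LMP2, had a difference of -0.01 ± 0.25 at day 1 and rose by 0.97 ± 0.25 at day 2 (adjusted p = 0.0152), 0.96 ± 0.25 at day 5 (adjusted p = 0.00947) and 1.00 ± 0.23 at day 9 (adjusted p = 0.00302). At day 2 it was at -0.79, -0.78 and -1.23 in obstructed kidneys, against -1.54 and -2.28 in sham kidneys. The Psmb9 calls were lost at day 2 without obstructed S04 (0.90, adjusted p = 0.0501) or S18 (0.90, adjusted p = 0.0565) or sham S39 (0.60, adjusted p = 0.199), at day 5 without sham S22 (0.95, adjusted p = 0.0614) or S32 (0.97, adjusted p = 0.0514), and at day 9 without sham S33 (0.82, adjusted p = 0.0610).

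Each immunoproteasome subunit was set against the constitutive subunit whose place it takes. Averaged over days, Psmb8 exceeded Psmb5 in its difference by 1.32 on the log2 scale, Psmb9 exceeded Psmb6 by 0.77 and Psmb10 exceeded Psmb7 by 1.35. In a two-sided exact permutation test of obstructed and sham labels within days, over 15000 arrangements, these gave p = 0.000333, 0.000933 and 6.67e-05, the last being the smallest p that the test can give (adjusted over the 3 pairs 5e-04, 0.000933 and 2e-04). The within-replicate gap was larger in all obstructed than in all sham replicates of the same day at 4 days for Psmb10 and Psmb7 and at 3 days for each of the other pairs. Psmb5 was at 0.87, 0.86 and 0.89 in obstructed kidneys at day 1, against 0.27 and 0.49 in sham kidneys, a difference of 0.50 ± 0.12 (limma adjusted p = 0.00850). At day 9 it was at 0.06, -0.25, -0.07 and -0.10 in obstructed kidneys, against 0.17 and 0.28 in sham kidneys, a difference of -0.31 ± 0.11 (adjusted p = 0.0323). Psmb5 was thus higher at day 1 and lower at day 9, while Psmb6 was not called at any day and Psmb7 fell in the mean over days by 0.24 on the log2 scale (adjusted p = 0.00349). A subunit is compared here with itself across kidneys, and the amounts of the different subunits cannot be compared.

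**Figure D4:**
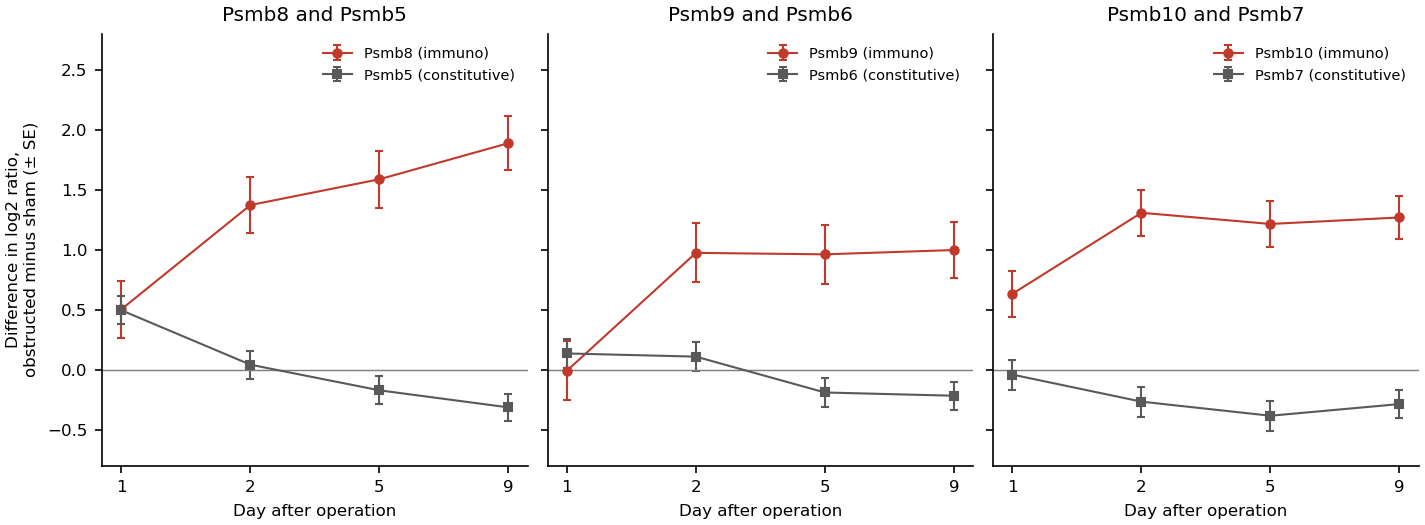
Difference in log2 ratio, obstructed minus sham (y axis, ± standard error of the limma fit), by day after the operation (x axis) for the 3 pairs of an immunoproteasome subunit (red) and the constitutive subunit it replaces (grey). At day 9 the red points lie between 1.00 and 1.89 and the grey ones between -0.31 and -0.22.

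Nlrc5, the class I transactivator, had 1 spot and was not called at any day. It was at -0.83, -0.96 and -0.98 in obstructed kidneys at day 1, against -0.61 and -0.45 in sham kidneys. At day 9 it was at -0.05, -0.47, -0.57 and -0.40 in obstructed kidneys, against -0.09 and -0.56 in sham kidneys. All obstructed values lay under the sham values at day 1, and the groups overlapped at day 9. The differences were -0.39 ± 0.22 at day 1 (limma adjusted p = 0.243), -0.04 ± 0.22 at day 2, 0.31 ± 0.22 at day 5 (adjusted p = 0.330) and -0.05 ± 0.21 at day 9. The mean of the 4 differences was -0.04 ± 0.11, with a 95% interval of -0.27 to 0.18, which does not show that Nlrc5 was unchanged.

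The effect was also compared between days. The day 9 difference exceeded the day 1 difference by an adjusted p under 0.05 for 4 of the 10 genes, against 7.2% of all genes: by 1.13 ± 0.28 for B2m, 1.34 ± 0.28 for H2-K1, 1.10 ± 0.23 for Tap2 and 1.38 ± 0.33 for Psmb8. The F test of any difference between days passed for 3 of the 10 (H2-K1, Tap2 and Tapbp), against 4.85% of all genes. Between successive days (day 2 minus 1, day 5 minus 2 and day 9 minus 5) none of the 10 was called. The share of all genes was not counted for these steps. All 4 calls of day 9 minus day 1 were lost without sham replicate S33, with 0.82 for B2m, 1.08 for H2-K1, 0.89 for Tap2 and 1.07 for Psmb8, and those of B2m (0.99) and Psmb8 (1.27) also without sham S06. H2-D1 had a gap of 1.36 ± 0.49 that was not called (adjusted p = 0.0844), but was called without sham S10 (1.98, adjusted p = 0.0141).

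Other genes of the pathway were read from lists, whose counts for the mean over days stand against 26.9% of all genes called higher and 25.9% called lower. Counts of genes that rose by day stand against 7.99%, 9.09%, 14.9% and 20.5% of all genes at days 1, 2, 5 and 9. Of 17 measured class I heavy chain genes other than H2-K1 and H2-D1 (24 listed), 10 rose and 1 fell in the mean over days, with a median of 0.29. By day 0, 1, 8 and 8 rose at days 1, 2, 5 and 9, under the share of all genes at days 1 and 2. The 4 of lowest p were H2-M3, which presents formylated peptides, at 0.77 ± 0.13 (limma adjusted p = 0.000135), H2-Q4 at 0.64 ± 0.11 (adjusted p = 0.000186), Mr1, which presents microbial vitamin B metabolites, at 0.29 ± 0.06 (adjusted p = 0.00150) and H2-Q7, of the Qa-2 molecules, at 0.44 ± 0.12 (adjusted p = 0.00717). The one that fell was H2-Bl, at -0.53 ± 0.17 (adjusted p = 0.0135), named after its value was seen. H2-M3 and Mr1 were not called after quantile normalization (0.29 and 0.12). Of 9 measured loading and trimming genes (10 listed), 3 rose and 1 fell, with a median of -0.04. The share that rose was near that of all genes and the share that fell was under it. Without subtraction of the array medians 3 fell, as they did without sham replicate S32. Erap1, the aminopeptidase that trims peptides, rose by 0.89 ± 0.13 (adjusted p = 4.28e-05), Tapbpl, a tapasin relative that edits peptides, by 0.58 ± 0.09 (adjusted p = 5.44e-05) and Sec61a1, of the translocation channel, by 0.32 ± 0.04 (adjusted p = 2.48e-05). Ganab, the glucosidase II subunit that trims glycans, fell by 0.30 on the log2 scale (adjusted p = 0.00136).

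In the proteasome list, 1 of 8 measured genes rose (9 listed) and 2 fell, with a median of -0.03; the share that fell was near that of all genes and the share that rose was under it. The gene that rose was Psme1, a subunit of the interferon-inducible PA28 activator. It was at 0.32, 0.29, 0.44 and 0.33 in obstructed kidneys at day 9, against -0.29 and -0.45 in sham kidneys, and its mean difference was 0.44 ± 0.05 (limma adjusted p = 1.88e-06). Psme4, the PA200 activator, and Psmb7 fell, at -0.30 ± 0.08 and -0.24 ± 0.06 (adjusted p = 0.00342 and 0.00349), and Psme3, of another activator, was at -0.15 ± 0.07 (adjusted p = 0.103). Psme4 gave 0.15 (adjusted p = 0.668) when the spot of highest mean value stood for the gene. Psme2 had no tested value.

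Of 23 measured genes of interferon signalling and class I regulation (26 listed), 16 rose and 2 fell in the mean over days, with a median of 0.49, and 6, 7, 14 and 16 rose at days 1, 2, 5 and 9. The chains of the interferon-gamma receptor rose, Ifngr1 by 1.35 ± 0.08 (limma adjusted p = 9.61e-09) and Ifngr2 by 1.18 ± 0.06 (adjusted p = 2.72e-09), and Rela, an NF-kappa B subunit, by 0.82 ± 0.08 (adjusted p = 3.92e-07). Irf1, a transcription factor induced by interferon, was at -1.01, -0.83 and -0.89 in obstructed kidneys at day 1, against -1.61 and -1.79 in sham kidneys. At day 9 Irf1 was at 0.28, -0.19, -0.12 and -0.10 in obstructed kidneys, against -1.22 and -1.82 in sham kidneys. It was called at each day, with differences of 0.79, 1.03, 1.22 and 1.49, and its mean difference was 1.13 ± 0.11 (adjusted p = 7.66e-07). Ifng, the interferon itself, was at 2.21, 1.54, 1.71 and 0.99 in obstructed kidneys at day 9, against 1.46 and 1.30 in sham kidneys, which overlapped. Its mean difference was 0.47 ± 0.22 and was not called (adjusted p = 0.0879), but was called without obstructed replicate S02 (0.55, adjusted p = 0.0391) or S21 (0.56, adjusted p = 0.0286). The spot of highest mean value gave 1.15 for Ifng (adjusted p = 0.0685). Ifnb1 and Nfkb1 had no tested value.

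The pattern across kidneys was compared with that of other genes. Over 21 replicates each of the 10 genes correlated with the mean of the others at a Pearson r of 0.863 (Psmb10) to 0.975 (Psmb8), apart from Nlrc5 at 0.538. A set of 15270 genes with a value in all replicates was compared. It left out the 10, the genes of the pathway lists above, and clone or predicted names. Of this set, the genes most like the mean of the 10 were Arhgap30 (r = 0.983), Lsp1 (0.982), Lrmp (0.981), Rgs10 (0.98) and Arhgap9 (0.979). They rose in the mean over days by 1.56, 1.39, 1.23, 1.51 and 0.85 and at day 9 by 2.27, 2.26, 1.95, 2.56 and 1.44. These correlations are descriptions over kidneys that differ in day and operation, with all genes read from the same arrays.

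Among blood-derived cells, the monocyte, macrophage and dendritic cell list and the T and NK cell list rose with these genes. The B cell list, given further below, gave no result. Over all genes tested, 26.9% were called higher in the mean over days, and 7.99%, 9.09%, 14.9% and 20.5% at days 1, 2, 5 and 9. Of 10 measured monocyte, macrophage and dendritic cell markers (12 listed), 8 rose and 0 fell in the mean over days, and 1, 3, 6 and 7 rose at days 1, 2, 5 and 9. Their list mean ran from -1.01 to -0.21 in obstructed kidneys at day 1, against -0.80 to -0.76 in sham kidneys, and from 1.04 to 1.22 at day 9, against -1.09 to -0.27. Ptprc, the leukocyte antigen CD45, rose by 1.35 ± 0.14 (limma adjusted p = 1.36e-06), Itgam, the integrin CD11b, by 2.76 ± 0.19 (adjusted p = 1.64e-08), Lyz2, lysozyme, by 1.98 ± 0.23 (adjusted p = 3.57e-06) and Adgre1, the macrophage antigen F4/80, by 1.59 ± 0.20 (adjusted p = 7.44e-06). Ptprc was not called when the spot of highest mean value stood for it (0.45, adjusted p = 0.178). Of 13 measured T and NK cell markers (14 listed), 8 rose and 0 fell in the mean over days, and 0, 1, 4 and 4 rose at days 1, 2, 5 and 9. At days 1 and 2 this was under the share of all genes. In 15 of 34 alternatives 1 or 2 of these markers were called lower in the mean, and 5 were called higher without sham replicate S39 or with image folder 2 alone. The marker called lower at day 1 was Cd8a, of the same coreceptor as Cd8b1, at -1.48 ± 0.45 (limma adjusted p = 0.0354), and the one called lower at day 9 was Cd4, the helper T cell coreceptor, at -0.25 ± 0.09 (adjusted p = 0.0403), both named after their values were seen. Of all genes, 9.31% and 20.8% were called lower at days 1 and 9. Their list mean ran from 1.45 to 1.83 in obstructed kidneys at day 9, against 0.17 to 0.61 in sham kidneys. Ccl5, a T cell chemokine, rose by 2.15 ± 0.23 (adjusted p = 1.88e-06), Klrd1, the NK receptor CD94, by 1.82 ± 0.39 (adjusted p = 0.00107), Cd3d, of the T cell receptor complex, by 1.56 ± 0.36 (adjusted p = 0.00182) and Cd8b1, of the coreceptor for class I, by 1.56 ± 0.39 (adjusted p = 0.00313). The part of these cells in the rise of the class I genes was not tested.

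Among the remaining marker lists, 1 of 4 measured B cell genes rose (Cd79b, 0.87 ± 0.20, limma adjusted p = 0.00218, list mean -2.42 to -1.07 in obstructed and -2.30 to -1.91 in sham kidneys), 2 of 5 endothelial genes fell (Kdr, -0.38 ± 0.12, and Tek, -0.37 ± 0.13) and 6 of 8 kidney tubule genes fell. The B cell and endothelial counts are few genes against the 26.9% of all genes called higher and 25.9% called lower, and read as no result. The call of Tek was lost in 10 of 34 alternatives, 7 of which left out 1 replicate (sham S06, S08, S22 or S33, or obstructed S05, S21 or S30; -0.36 to -0.27, adjusted p 0.0510 to 0.107), and that of Kdr in 3. The tubule list mean, which marks the labelled tissue, lay far above the reference in all kidneys, at 4.84 to 5.63 in obstructed and 5.73 to 6.15 in sham kidneys. Slc12a1, the cotransporter of the thick limb, was at -1.46 ± 0.15 (adjusted p = 8.21e-07), Lrp2, which encodes megalin, at -0.66 ± 0.12 (adjusted p = 0.000309), Aqp2, a water channel, at -0.59 ± 0.08 (adjusted p = 1.42e-05) and Slc34a1, a phosphate transporter, at -0.38 ± 0.08 (adjusted p = 0.000846). Cd79b, Kdr, Tek and Slc34a1 were not called after quantile normalization (0.32, -0.08, -0.23 and -0.04), which left 3 tubule genes called lower. Lrp2 was at -0.38 after quantile normalization (adjusted p = 0.0112), and was not called when the spot of highest mean value stood for it (-0.78, adjusted p = 0.0673).

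**Figure D5:**
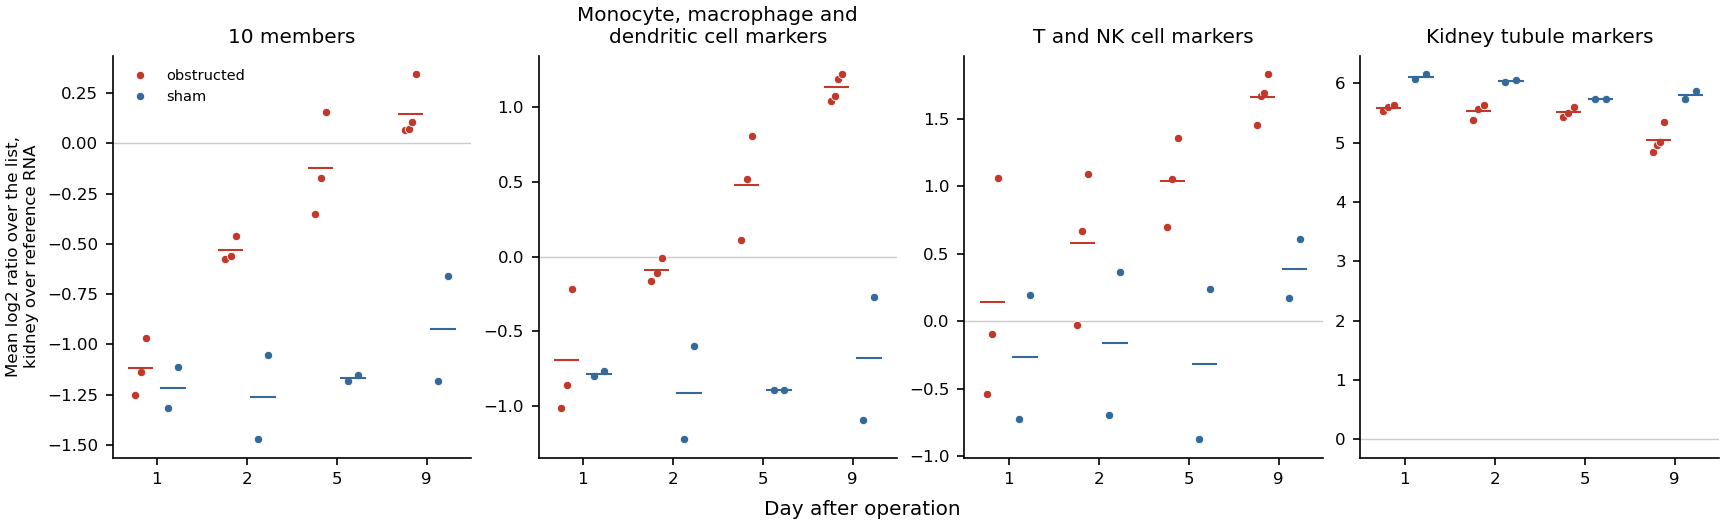
Mean log2 ratio of kidney over reference RNA over a list (y axis) by day after the operation (x axis), for the 10 genes, for 2 lists of blood-derived cell markers and for kidney tubule markers; each point is a replicate, red for obstructed and blue for sham, and bars are group means. At day 9 the obstructed points of the first 3 panels lie above the sham points and the tubule markers lie lower in obstructed kidneys.

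Between the 2 sham kidneys of day 9, S10 lay above S33 in all 10 genes and in both blood-derived cell lists that rose. For monocytes, macrophages and dendritic cells the list means were -0.27 in S10 and -1.09 in S33. The arrays were read into 2 image folders, with 4 arrays in folder 1 and 18 in folder 2. At day 1 sham S06 lies in folder 1 and all obstructed kidneys in folder 2, so folder and operation are not balanced there. At day 5, where both folders hold both operations, the differences of the 10 genes were all positive in either, from 0.37 to 1.79 in folder 1 and from 0.04 to 1.33 in folder 2, which there holds 1 obstructed and 1 sham kidney. Between 35747 and 39871 of the 45220 spots were measured per array.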

How the data were processed

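Whole kidneys of C57BL/6 mice, obstructed or sham-operated, were measured on 22 arrays with 2 colours, kidney RNA in Cy5 and a mouse universal reference RNA in Cy3, per the labels. The deposited table holds 1 ratio per spot and array. The values as deposited by the authors, from -3.11 to 4, were taken for log10 of Cy5 over Cy3 with each array's median at 0; the base is inferred, since neither labels nor file state it. They were multiplied by 3.32 to give log2. The design had assumed log2 ratios. The sources used here do not give the scanner software, background correction or dye normalization. Values of exactly 0 (5147 to 9271 per array) were read as missing, each array's median was subtracted, and spots with a value on at least 18 of 22 arrays and in 1 or more replicates of each group were kept. The spots of a gene were averaged, leaving 17039 genes. The number of arrays limits the precision.

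The number S03 stands on 2 sham arrays of day 1, S03L and S03R, whose mean served as 1 replicate, leaving 21 replicates (13 obstructed, 8 sham). The letters L and R are not explained in the labels; all 3 arrays marked R are sham kidneys of days 1 and 2, and all obstructed arrays are marked L, so the letter goes with operation and day. Nothing states that each replicate is a separate animal beyond the protocol's mention of further mice as shams, so p-values measure the spread between these samples. A single limma fit (limma 3.58.1, R 4.3.3) of 8 group means gave the daily differences, obstructed minus sham, their mean and the contrasts between days, with eBayes and Benjamini-Hochberg adjustment over all genes at 0.05. Immunoproteasome and constitutive subunits were compared by an exact permutation test. The fit was tested on simulated data.

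The 10 genes and the lists were chosen with earlier results of these data known. Besides the 10 genes, the text names the 4 measured genes of lowest p in each list, Psmb5, Psmb6, Psmb7, Psme1, Psme2, Irf1 and Ifng. It also names the 5 genes whose pattern over replicates correlated best with the 10, within the set compared as given above. A further gene of that rule and a further promoter motif are not reported here. Gene symbols came from the platform annotation, in which 33653 probes had 1 gene, 56 had several and 11511 had none. Alternatives changed the centring, normalization, reading of zeros, filter, choice of spots, arrays, image folder, weights and fit, and left out each replicate in turn.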

Additional observations from a re-analysis of the deposited data

Results flagged for a closer look

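In the 4 obstructed kidneys of day 9, replicate S09 had the highest H2-D1 log2 ratio, 1.35, far from the other 3 at 0.62 to 0.70, so that the gap took 0.893 of the range of the group. Chance marks about 1 in 20 groups in this way, and 10 genes were examined. Without S09 the day 9 difference of H2-D1 was 1.16 (limma adjusted p = 0.0121).

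The difference between obstructed and sham kidneys was itself different at day 9 and at day 1 for 4 genes, by the contrast of the daily differences in the limma fit: 1.13 for B2m, 1.34 for H2-K1, 1.10 for Tap2 and 1.38 for Psmb8, all larger at day 9. Without sham replicate S33 of day 9 none of these 4 was called.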

How the results depend on the processing

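The mean of the 4 daily differences kept its direction and its call for the 9 genes under all 306 combinations of gene and alternative (34 alternatives with a value per gene), and the count was 8 when every spot of a gene had to be called. The call was also kept in 313 of 315 at day 9, 304 of 315 at day 5, 179 of 210 at day 2, 27 of 35 at day 1 and 127 of 136 for day 9 minus day 1. The others lost the call and 0 reversed. The count called higher at day 1 was 0 with quantile normalization, with arrays marked L alone, with image folder 2 alone and with each day fitted by itself, where it is 1 in the fit reported. Arrays marked L alone leave 1 sham kidney at each of days 1 and 2. At day 2 the count was 3 with quantile normalization and 2 with each day fitted by itself, and it was also lower with arrays marked L alone. With image folder 2 alone the counts at day 5 and for day 9 minus day 1 were lower. Each gene's day 5 difference was smaller there. It was 0.57 for Tap1, 0.57 for Tap2, 0.80 for Psmb9 and 0.99 for H2-D1, against 1.12, 0.91, 0.96 and 1.42 in the fit reported. For day 9 minus day 1 the gap was 0.99 for B2m, 1.14 for H2-K1 and 1.27 for Psmb8. Folder 2 alone leaves out the kidneys of folder 1, so that 1 obstructed and 1 sham kidney remain at day 5. At day 1 it leaves 1 sham kidney. The cause of these lower counts was not tested. With each replicate left out in turn the counts ran from 0 to 1 at day 1, 3 to 7 at day 2, 7 to 9 at days 5 and 9, and 0 to 6 for day 9 minus day 1.

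Most reversed values were of differences near 0; Psme4 and Ms4a1 (0.63, not called, in the fit reported) were not. Without subtraction of the array medians, and likewise with zeros kept as ratios of 1, the day 1 differences were 0.044 for H2-K1, 0.021 for H2-D1, 0.030 for Tapbp and 0.040 for Psmb9, and the mean difference of Psmb5 was -0.037. Quantile normalization gave -0.0091 for B2m at day 1 and -0.025 for the mean of Ms4a1. The spot of highest mean value gave -0.00092 for B2m and 0.21 for Tapbp at day 1, and 0.15 for the mean of Psme4, which is called lower at -0.30 in the fit reported. S03L and S03R as separate replicates gave 0.061 for H2-K1 and 0.021 for Psmb9 at day 1. Arrays marked L alone gave 0.044 for H2-K1, 0.028 for Tapbp and 0.11 for Psmb9 at day 1, and 0.035 for the mean of Psmb6. The image folder as a block gave 0.17 for H2-K1, 0.16 for H2-D1, 0.050 for Tapbp and 0.059 for Psmb9 at day 1, and folder 2 alone 0.19 for H2-K1 and 0.080 for Psmb9. Array weights gave 0.016 for H2-K1, 0.0096 for Tapbp and 0.085 for Psmb9 at day 1, and 0.00013 for Nlrc5 at day 2. With each replicate left out, the day 1 differences ran from -0.20 to 0.19 for H2-K1, -0.16 to 0.22 for H2-D1, -0.079 to 0.029 for Tapbp and -0.20 to 0.13 for Psmb9. Those of Nlrc5 ran from -0.25 to 0.17 at day 2, -0.29 to 0.19 at day 9 and -0.10 to 0.016 in the mean, and the mean of Psmb5 from -0.027 to 0.054.

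The pairs of subunits differed by 1.03 to 1.42 for Psmb8 and Psmb5, 0.58 to 0.86 for Psmb9 and Psmb6 and 1.26 to 1.44 for Psmb10 and Psmb7 over the alternatives run. Leaving out the subtraction of array medians moved the median difference of all genes by -0.13 at day 5 and -0.11 for day 9 minus day 1, and quantile normalization by -0.10 at day 5. No paired analysis was possible because obstructed and sham kidneys share no replicate numbers. Averaging the spots of 1 accession first was chosen after seeing the data. With 2 sham kidneys a day, single sham kidneys decide several daily calls. Intensities were not analysed, so signal over background is unknown.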
